A study of Homo sapiens with 6 samples.

Results

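The 49 genes described here are named components of the interferon response together with 5 guanylate-binding proteins (GBPs). They were taken from the table of 60605 genes by symbol, and all 49 were found. They fall into 30 type I effectors, 5 GBPs and 14 JAK-STAT-IRF genes (receptors, kinases, STATs and interferon regulatory factors). The study asked how overexpressing ELAPOR1, a membrane protein of endosomes and lysosomes, alters gene expression in SW620, an established human colorectal cancer line. The ELAPOR1 group held 3 libraries of SW620 cells infected with the lentiviral construct pLVX-IRES-Puro-ELAPOR1, and the vector group held 3 libraries of SW620 cells infected with the same construct lacking an insert. Both groups were infected at a multiplicity of 20, selected as stable cells with puromycin at 2 ug/ml, and grown with 10% fetal bovine serum, and neither had a further treatment. No interferon was applied in either group according to the labels, so the values are those of cells without added interferon. Separate cultures are not stated for the libraries of a group: the p-values reflect the spread among these libraries alone, and that spread may be technical.

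Interferons are secreted proteins that bind receptor pairs at the cell surface: IFNAR1 with IFNAR2 for type I interferons and IFNGR1 with IFNGR2 for interferon gamma. The receptors carry JAK kinases, which phosphorylate STAT proteins. A complex that includes STAT2 and IRF9 binds the interferon-stimulated response element in the promoters of antiviral genes, and STAT pairs bind the gamma-activated site. The effectors include RNA-binding proteins (IFITs), makers of the second messenger that activates RNase L (OAS enzymes), ubiquitin-like modifiers (ISG15) and large GTPases (MX proteins and GBPs), and GBPs are known for strong induction by interferon gamma in epithelial cells and macrophages.

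The calls were spread over all 3 classes, and differences between the classes were not tested. Of the 5 GBPs, GBP2 and GBP3 rose 6.47-fold and 4.77-fold in ELAPOR1 cells, GBP1 did not pass the test, and GBP4 and GBP5 were too low to test. The type I effectors moved in both directions by smaller amounts: OAS2, IFI6, PARP9 and OAS1 rose, while ISG15 and ISG20 fell. Among the 14 receptors, kinases, STATs and interferon regulatory factors, only JAK2 passed the test (7.14%, against 21.4% of all tested genes), and it rose. In all, 40 of the 49 genes had enough counts to be tested with edgeR's quasi-likelihood test, and 9 of these (22.5%) passed a Benjamini-Hochberg adjusted p of 0.05, against 21.4% of the 16003 genes tested. The share of the 40 that was called therefore lay near that of all genes and is not in itself a result about the interferon genes. Higher calls were 7 of 40 (17.5%), against 10.0% of all tested genes, and lower calls were 2 of 40 (5.0%), against 11.4%. The 7 higher calls include GBP2 and GBP3, which passed the filter on low counts through the ELAPOR1 libraries. The higher share and the median of the 40 genes are therefore not read as a lean upward. The median log2 fold change was 0.14 for the 40 tested genes, 0.19 for the 23 tested effectors, 0.01 for the 14 JAK-STAT-IRF genes and 0.00407 for all tested genes. No median is given for the GBPs, since GBP2 and GBP3 passed the filter on low counts through the ELAPOR1 libraries, where they are high, and GBP4 and GBP5 did not pass it. These are bulk libraries, so a change in the share of cells that express a gene and a change in RNA per cell cannot be told apart.

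**Figure D1:**
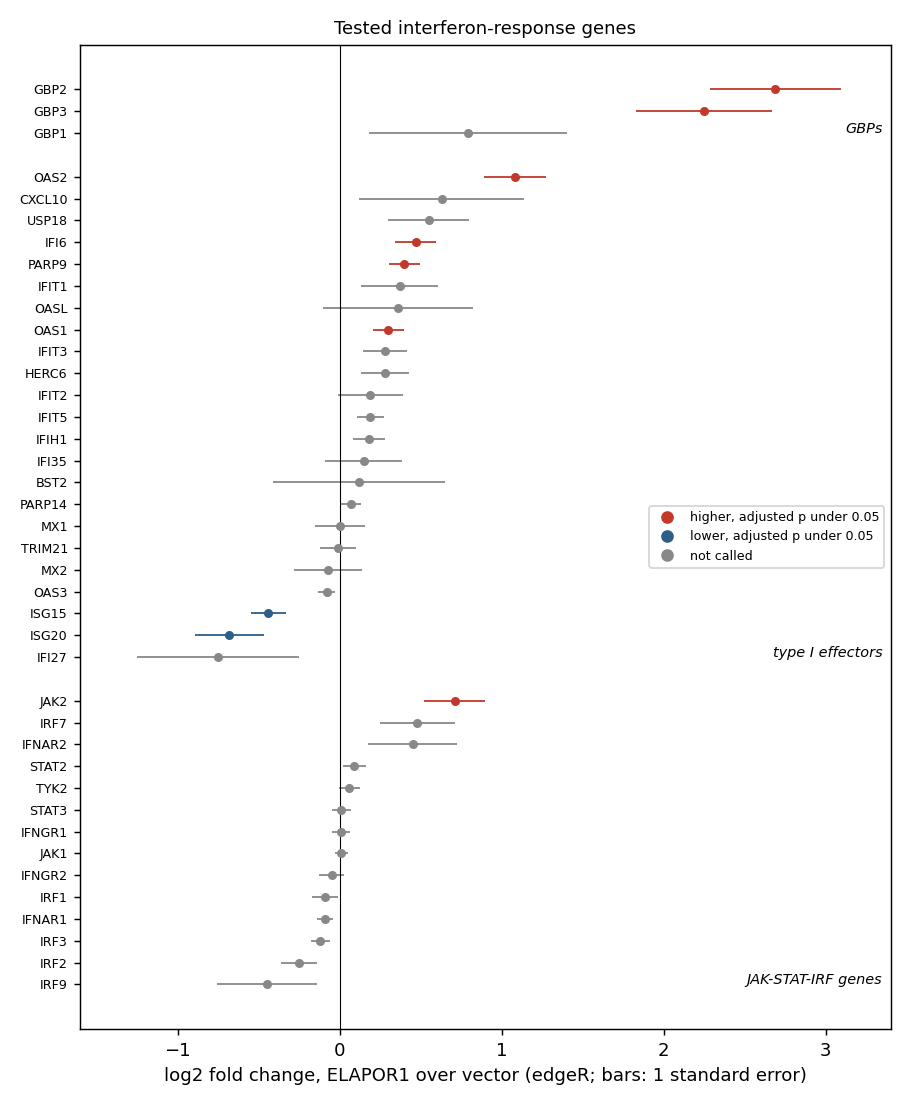
The plot gives the log2 fold change of ELAPOR1 over vector cells for the 40 tested genes, with bars of 1 standard error, grouped as GBPs, type I effectors and JAK-STAT-IRF genes. GBP2 (2.69) and GBP3 (2.25) lie apart from the other genes, and the 12 JAK-STAT-IRF genes other than JAK2 and IRF7 lie between -0.45 and 0.45.

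The libraries held 16457436, 19268166 and 17984626 counts in ELAPOR1 cells and 19410332, 20571924 and 16401813 counts in vector cells. ELAPOR1 itself stood at 21126 ± 362 CPM (counts scaled to library size) in ELAPOR1 cells and 10.4 ± 1.47 CPM in vector cells (SD, n = 3 each), a log2 fold change of 10.97 (SE 0.037, adjusted p = 1.31e-105 by edgeR). Of 10 epithelial markers, 9 were tested and 5 of them (55.6%) were called lower by edgeR, against 11.4% of all tested genes. These were KRT8 (log2 fold change -0.14), KRT19 (-0.45), KRT20 (-1.67), CDH1 (-0.76) and CDX2 (-0.56). The summed level of the 10 markers was 1830 to 1850 FPKM in ELAPOR1 cells and 2010 to 2100 FPKM in vector cells. FPKM is the authors' level per exonic length and library size. CDX1 had at most 2 counts in any library. Of 12 immune markers, 11 stayed under 1 FPKM in every library, 3 had no count, and the summed level was 4.73 to 5.13 FPKM in ELAPOR1 cells and 3.95 to 5.27 FPKM in vector cells. Of 10 fibroblast and endothelial markers, 9 stayed under 1 FPKM in every library. The summed level of the 10 was 8.61 to 10.5 FPKM in ELAPOR1 cells and 6.01 to 6.57 FPKM in vector cells. Most of it was LUM, a matrix proteoglycan, which was called higher (log2 fold change 0.64, adjusted p = 3.9e-07 by edgeR). LUM was the only 1 of the 5 tested markers called (20.0%), against 21.4% of all tested genes. The part of these markers in the results below was not tested.

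The ligands were at or near the limit of detection. Of 22 interferon genes in the table, 20 had no count in any library, which allows up to 0.146 to 0.183 CPM per library by a limit of 3 counts (counting error only). IFNE, an epithelial type I interferon, had 1, 3 and 2 counts in ELAPOR1 libraries and 2, 15 and 10 counts in vector libraries, and IFNG had 3 counts in ELAPOR1 replicate 2 and 0 elsewhere. None of the 22 passed the filter on low counts.

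All 4 receptor genes had counts in every library, and none was called. IFNGR1, the ligand-binding chain of the interferon gamma receptor, had the highest level per length among the JAK-STAT-IRF genes, with 17.3 ± 0.0208 FPKM in ELAPOR1 cells and 17.5 ± 0.508 FPKM in vector cells. Its log2 fold change was 0.01 (SE 0.0568, adjusted p = 0.957 by edgeR). IFNGR2, the accessory chain, averaged 13.3 ± 0.443 FPKM in ELAPOR1 cells and 14.0 ± 0.811 FPKM in vector cells, and IFNAR1 averaged 11.2 ± 0.154 FPKM in ELAPOR1 cells and 12.1 ± 0.639 FPKM in vector cells. The other chain of the type I receptor, IFNAR2, was the lowest of the 4 per length, with 0.607 ± 0.175 FPKM in ELAPOR1 cells and 0.447 ± 0.0321 FPKM in vector cells. The 4 receptor genes had log2 fold changes between -0.09 and 0.45 and adjusted p-values between 0.233 and 0.957 by edgeR, so no difference beyond the spread between libraries was found.

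**Figure D2:**
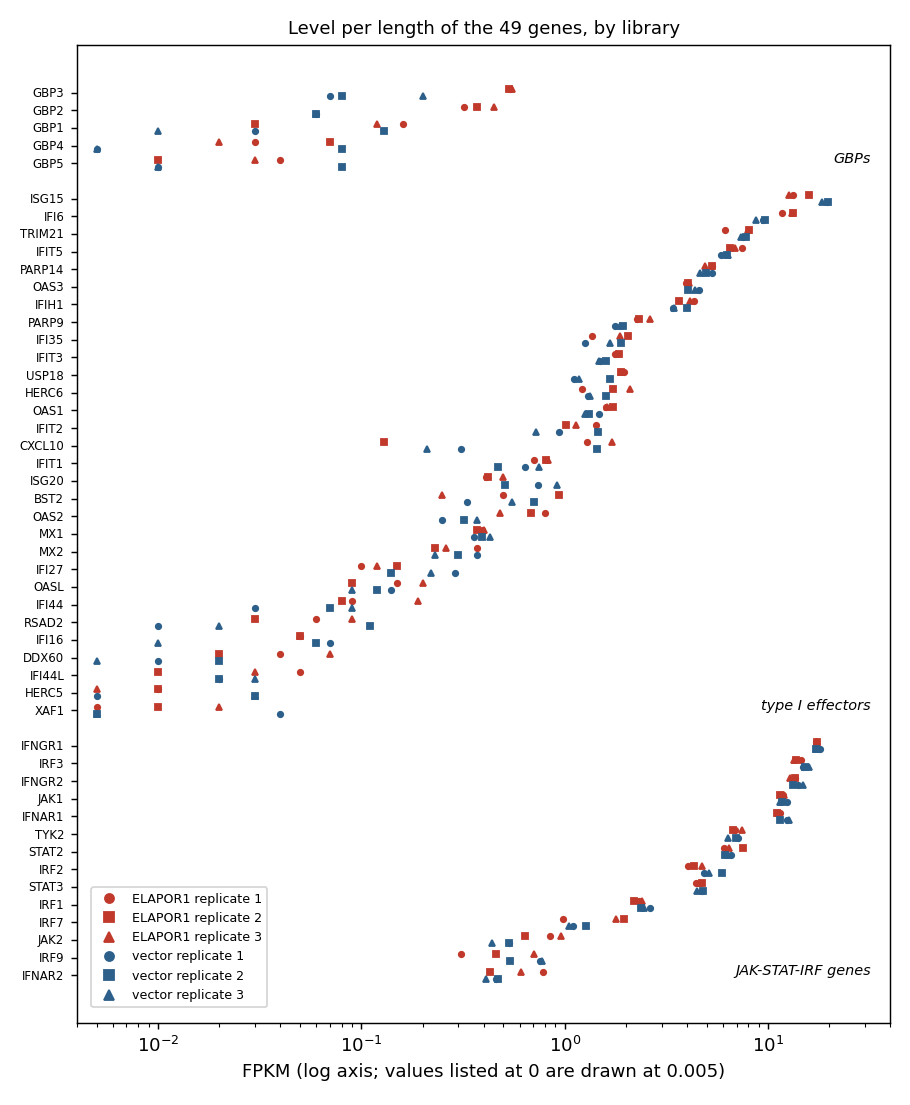
The plot gives the FPKM of each of the 49 genes in each library on a log axis, ordered by mean level within each class, with ELAPOR1 libraries in red above vector libraries in blue. All 5 GBPs lie under 1 FPKM in every library, against 15 of 30 type I effectors and 3 of 14 JAK-STAT-IRF genes.

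Of the 3 JAK kinases that serve these receptors, JAK2, which is bound to the interferon gamma receptor and to many cytokine receptors, rose. It had 6.77, 5.07 and 7.63 CPM in ELAPOR1 libraries, against 4.19, 4.16 and 3.46 CPM in vector libraries. All 3 ELAPOR1 libraries lay above all 3 vector libraries, with ELAPOR1 replicate 2 nearest to them. The log2 fold change was 0.71 (SE 0.188, adjusted p = 0.00295 by edgeR). Without ELAPOR1 replicate 3 it was 0.57, with an adjusted p of 0.0555 by edgeR. With all libraries, limma did not call JAK2 either (adjusted p = 0.153 on log2(FPKM + 1) and 0.167 on log2(FPKM + 0.1)). The call thus depends on that library and on the test used. JAK2 spans chr9:4984390-5129948 on the plus strand (GRCh38), and the genes annotated within its span had at most 8 counts each over all 6 libraries. JAK2 was also the lowest of the 3 kinases per length, with 0.817 ± 0.163 FPKM in ELAPOR1 cells and 0.50 ± 0.052 FPKM in vector cells. JAK1 averaged 11.8 ± 0.249 FPKM in ELAPOR1 cells and 11.9 ± 0.511 FPKM in vector cells, and TYK2 averaged 7.02 ± 0.371 FPKM in ELAPOR1 cells and 6.81 ± 0.393 FPKM in vector cells. Their log2 fold changes were 0.01 and 0.06, with adjusted p-values of 0.908 and 0.564 by edgeR.

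Neither of the STATs among the 49 genes was called, with adjusted p-values of 0.405 and 0.959 by edgeR. STAT2 averaged 6.67 ± 0.744 FPKM in ELAPOR1 cells and 6.37 ± 0.230 FPKM in vector cells, and STAT3 averaged 4.61 ± 0.169 FPKM in ELAPOR1 cells and 4.66 ± 0.157 FPKM in vector cells.

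None of the 5 interferon regulatory factors was called, with log2 fold changes from -0.45 to 0.48 and adjusted p-values from 0.0918 to 0.475 by edgeR. IRF3, the factor that switches on interferon genes after nucleic acid sensing, had 55.7, 52.3 and 51.3 CPM in ELAPOR1 libraries, against 55.9, 57.4 and 60.2 CPM in vector libraries. Every ELAPOR1 library lay below every vector library, narrowly so in replicate 1, and the log2 fold change of -0.12 had an adjusted p of 0.134 by edgeR. IRF7, itself an interferon-induced amplifier, had 2.58, 5.12 and 4.71 CPM in ELAPOR1 libraries, against 2.86, 3.34 and 2.73 CPM in vector libraries. ELAPOR1 replicate 1 lay below the vector libraries while ELAPOR1 replicates 2 and 3 lay above them. With all libraries the log2 fold change was 0.48 (adjusted p = 0.143 by edgeR). Without ELAPOR1 replicate 1 it became 0.72 with an adjusted p of 0.024 by edgeR, and no other alternative called IRF7. IRF9, a DNA-binding partner of STAT2, had 1.11, 1.67 and 2.58 CPM in ELAPOR1 libraries, against 2.71, 1.94 and 2.73 CPM in vector libraries, which overlap. Leaving out vector replicate 1 brought IRF2, a repressor at interferon-responsive promoters, past the threshold with a log2 fold change of -0.32 (adjusted p = 0.0456 by edgeR), against -0.25 and 0.0918 with all libraries. No other alternative called IRF2. IRF1, an activator that responds to interferon gamma, averaged 2.30 ± 0.101 FPKM in ELAPOR1 cells and 2.48 ± 0.123 FPKM in vector cells.

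The GBPs lie side by side on chromosome 1, and promoter sequence is shown for GBP3, which was called, and GBP1, which was tested and not called. The 160 bases before each transcription start are given 5′ to 3′ on the minus strand, from RefSeq (GRCh38.p14), at chr1:89022867-89023026 for GBP3 and chr1:89065209-89065368 for GBP1. Capitals mark matches to TTCNNNGAA, the core of the gamma-activated site, in GBP3, and to GAAANNGAA, the core of the interferon-stimulated response element, on the opposite strand in GBP1.
GBP3: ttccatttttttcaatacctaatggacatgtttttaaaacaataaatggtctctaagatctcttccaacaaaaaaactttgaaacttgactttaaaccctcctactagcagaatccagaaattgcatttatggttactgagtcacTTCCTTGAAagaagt
GBP1: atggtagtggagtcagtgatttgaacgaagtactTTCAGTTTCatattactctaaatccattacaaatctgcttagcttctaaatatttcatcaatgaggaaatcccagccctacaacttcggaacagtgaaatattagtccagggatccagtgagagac
The GBP3 match lies 15 to 7 bases before the start, and a GAAANNGAA match on the opposite strand lies 4 to 12 bases after it, outside the bases shown. The GBP1 match lies 126 to 118 bases before the start, with another 38 to 46 bases after it.

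GBP2 and GBP3, interferon-induced GTPases that assemble on pathogen vacuoles and bacteria, had the largest changes of the 40 tested genes. GBP2 (chr1:89106132-89150456, GRCh38, minus strand) had 38, 51 and 59 counts in ELAPOR1 libraries, against 8, 9 and 7 counts in vector libraries. In CPM this was 2.34, 2.66 and 3.31 in ELAPOR1 libraries, against 0.409, 0.436 and 0.425 in vector libraries. The vector libraries were close to each other and all lay far below the ELAPOR1 libraries. The log2 fold change was 2.69 (SE 0.403, adjusted p = 1.6e-07 by edgeR). GBP3 (chr1:89006679-89022894, minus strand) had 38, 44 and 42 counts in ELAPOR1 libraries, against 6, 7 and 14 counts in vector libraries, or 2.34, 2.30 and 2.36 CPM against 0.307, 0.339 and 0.849 CPM. The ELAPOR1 libraries were nearly equal, and vector replicate 3 was the highest of its group without reaching them. The log2 fold change was 2.25 (SE 0.420, adjusted p = 1.97e-05 by edgeR). Despite the size of these changes the levels remained low, at 0.380 ± 0.0656 FPKM for GBP2 and 0.54 ± 0.010 FPKM for GBP3 in ELAPOR1 cells, against 0.0600 and 0.117 ± 0.0723 FPKM in vector cells, where GBP2 was listed at the same value in all 3 libraries.

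GBP1, the best known interferon gamma-induced member of the family, had the largest log2 fold change among the genes that were not called, 0.79 (SE 0.611, adjusted p = 0.411 by edgeR). It had 16, 4 and 13 counts in ELAPOR1 libraries, against 4, 16 and 1 counts in vector libraries, so the groups overlapped. GBP4 had 3, 8 and 2 counts in ELAPOR1 libraries, against 0, 10 and 0 counts in vector libraries, and GBP5, which promotes inflammasome assembly, had 5, 1 and 4 counts in ELAPOR1 libraries, against 1, 14 and 2 counts in vector libraries. Neither passed the filter, and in both the highest library was vector replicate 2. The authors' deposited table gives log2 fold changes of 0.53 for GBP4 and -0.58 for GBP5, without an adjusted p.

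The genes next to GBP2 and GBP3 had smaller fold changes. GBP7, which lies between GBP2 and GBP4 and overlaps GBP2 on the same strand, had 23, 11 and 10 counts in ELAPOR1 libraries, against 6, 10 and 17 counts in vector libraries, with a log2 fold change of 0.50 (adjusted p = 0.571 by edgeR). A gene without a symbol overlaps GBP2 on the opposite strand. It had 32 counts over all libraries, against 172 for GBP2, and was not tested. No strand setting for the counting is stated, so reads from this overlap cannot be assigned. GBP6 had 4 counts in ELAPOR1 replicate 3 and 0 in the other libraries. On the GBP3 side, RBMXL1, a retrogene for an RNA-binding protein, was called at a log2 fold change of 0.21 (adjusted p = 0.0372 by edgeR) and KYAT3 had -0.18 (adjusted p = 0.157). On the other side, LRRC8B had -0.07 (adjusted p = 0.563) and LRRC8C had 0.07 (adjusted p = 0.675). The GBP sequences are partly alike: of the 50-base words in GENCODE 29 transcripts, 10.2% of those of GBP2 (573 of 640 shared words with GBP7) and 4.76% of those of GBP3 (171 of 220 with GBP1) also occur in another gene, so reads from these words are uncertain between the genes.

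**Figure D3:**
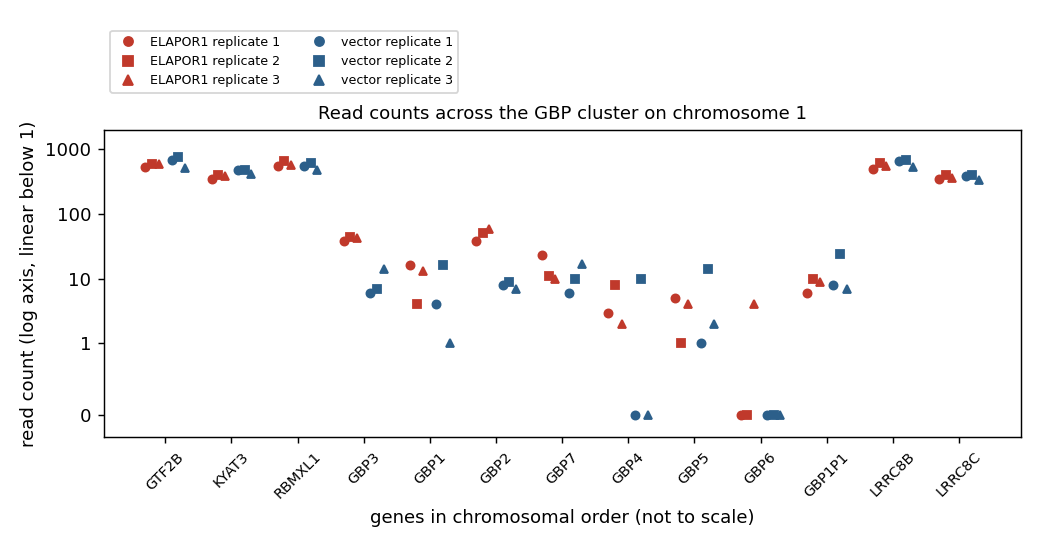
The plot gives read counts per library, on a log axis that is linear below 1, for 13 genes in chromosomal order across the GBP cluster, with ELAPOR1 libraries in red to the left of vector libraries in blue. GBP3 (38 to 44 counts in ELAPOR1 cells against 6 to 14 in vector cells) and GBP2 (38 to 59 in ELAPOR1 cells against 7 to 9 in vector cells) separate the groups, while GBP1, GBP7, GBP4 and GBP5 overlap.

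Of the 30 type I effectors, 23 were tested, 4 rose, 2 fell and 17 were not called, so that 26.1% were called, against 21.4% of all genes. Promoter sequence is shown for one that rose and one that fell, IFI6 and ISG15, since both carry 3 matches to GAAANNGAA in the 160 bases before the start (RefSeq, GRCh38.p14, 5′ to 3′, chr1:27672193-27672352 on the minus strand for IFI6 and chr1:1013337-1013496 on the plus strand for ISG15; capitals mark the matches, which run into each other in ISG15).
IFI6: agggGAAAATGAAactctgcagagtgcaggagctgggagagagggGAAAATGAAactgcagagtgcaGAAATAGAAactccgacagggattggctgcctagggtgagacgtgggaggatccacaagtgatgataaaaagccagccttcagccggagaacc
ISG15: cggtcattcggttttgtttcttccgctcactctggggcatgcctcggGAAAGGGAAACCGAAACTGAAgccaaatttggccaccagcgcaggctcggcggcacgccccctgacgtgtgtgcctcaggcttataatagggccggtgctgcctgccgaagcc
The matches begin 156, 115 and 93 bases before the start in IFI6 and 113, 107 and 101 bases before it in ISG15. The pair was chosen to hold the motif in a gene that was higher and in a gene that was lower in ELAPOR1 cells. A link between the motif and the direction of change was not tested.

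Within the OAS enzymes, which lie side by side on chromosome 12, the 3 genes differed. OAS2 (chr12:112978395-113011723, plus strand) had 9.04, 7.68 and 5.44 CPM in ELAPOR1 libraries, against 2.76, 3.53 and 4.18 CPM in vector libraries. The groups did not overlap, and the log2 fold change was 1.08 (SE 0.192, adjusted p = 7.49e-06 by edgeR). OAS1, at the other end of the cluster, had 21.1, 22.6 and 21.2 CPM in ELAPOR1 libraries, against 19.1, 16.9 and 16.4 CPM in vector libraries. It did not overlap either, with a log2 fold change of 0.30 (SE 0.0953, adjusted p = 0.0137 by edgeR), but its call was lost without ELAPOR1 replicate 2 (adjusted p = 0.0754), vector replicate 2 (0.0589) or vector replicate 3 (0.0785), all by edgeR. OAS3, which lies between them and had the highest level per length of the 3, had 72.2, 73.0 and 74.6 CPM in ELAPOR1 libraries, against 82.1, 72.6 and 78.2 CPM in vector libraries. These overlap, and the log2 fold change was -0.08 (adjusted p = 0.28 by edgeR). OASL, a relative without the synthetase activity that lies elsewhere on the chromosome, had 9 to 23 counts per library and was not called (log2 fold change 0.36, adjusted p = 0.665 by edgeR).

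IFI6, a small mitochondrial and endoplasmic reticulum protein that restrains apoptosis and flavivirus replication, had 11.1, 12.5 and 12.3 CPM in ELAPOR1 libraries, against 8.74, 9.01 and 8.13 CPM in vector libraries. The groups did not overlap, and the log2 fold change was 0.47 (SE 0.127, adjusted p = 0.00361 by edgeR). PARP9, which pairs with the ubiquitin ligase DTX3L, had 20.6, 20.8 and 23.8 CPM in ELAPOR1 libraries, against 15.7, 17.2 and 16.7 CPM in vector libraries. It too did not overlap, with a log2 fold change of 0.40 (SE 0.0967, adjusted p = 0.00124 by edgeR). Limma did not call PARP9 (adjusted p = 0.0615 on log2(FPKM + 1) and 0.0567 on log2(FPKM + 0.1)). Its partner DTX3L, the adjoining gene on the opposite strand, had a log2 fold change of -0.05 (adjusted p = 0.68 by edgeR). The ends of these 2 genes overlap, and the sources used here do not state a strand setting for the counting, so reads from the overlap cannot be assigned. PARP14, another member of the family in the same region, had 0.07 (adjusted p = 0.494 by edgeR).

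ISG15, the ubiquitin-like protein that is attached to many targets after interferon, had 11.7, 13.8 and 11.1 CPM in ELAPOR1 libraries, against 16.7, 17.1 and 15.8 CPM in vector libraries. All ELAPOR1 libraries lay below all vector libraries, and the log2 fold change was -0.44 (SE 0.110, adjusted p = 0.00177 by edgeR). It had the highest level per length of the 30 effectors, with 13.9 ± 1.70 FPKM in ELAPOR1 cells and 19.2 ± 0.749 FPKM in vector cells. ISG20, a 3′ to 5′ exonuclease, had 2.95, 3.03 and 3.59 CPM in ELAPOR1 libraries, against 5.26, 3.68 and 6.55 CPM in vector libraries. The groups stayed apart only narrowly, with vector replicate 2 close to ELAPOR1 replicate 3, and the log2 fold change was -0.68 (SE 0.214, adjusted p = 0.0145 by edgeR). Its call was lost without ELAPOR1 replicate 1 (adjusted p = 0.0531), ELAPOR1 replicate 2 (0.0519) or vector replicate 3 (0.174), by edgeR. The ISG15 cycle has further members here, of which USP18, the protease that removes ISG15, had 3.69, 3.55 and 3.53 CPM in ELAPOR1 libraries, against 2.04, 3.10 and 2.18 CPM in vector libraries. All ELAPOR1 libraries of USP18 lay above all vector libraries, without passing the test (log2 fold change 0.55, adjusted p = 0.114 by edgeR). HERC6, a relative of HERC5, had a log2 fold change of 0.28 (adjusted p = 0.186 by edgeR). It became 0.45 (adjusted p = 0.0243 by edgeR) without ELAPOR1 replicate 1, and no other alternative called HERC6. HERC5, the ligase that attaches ISG15, had 0 to 3 counts.

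**Figure D4:**
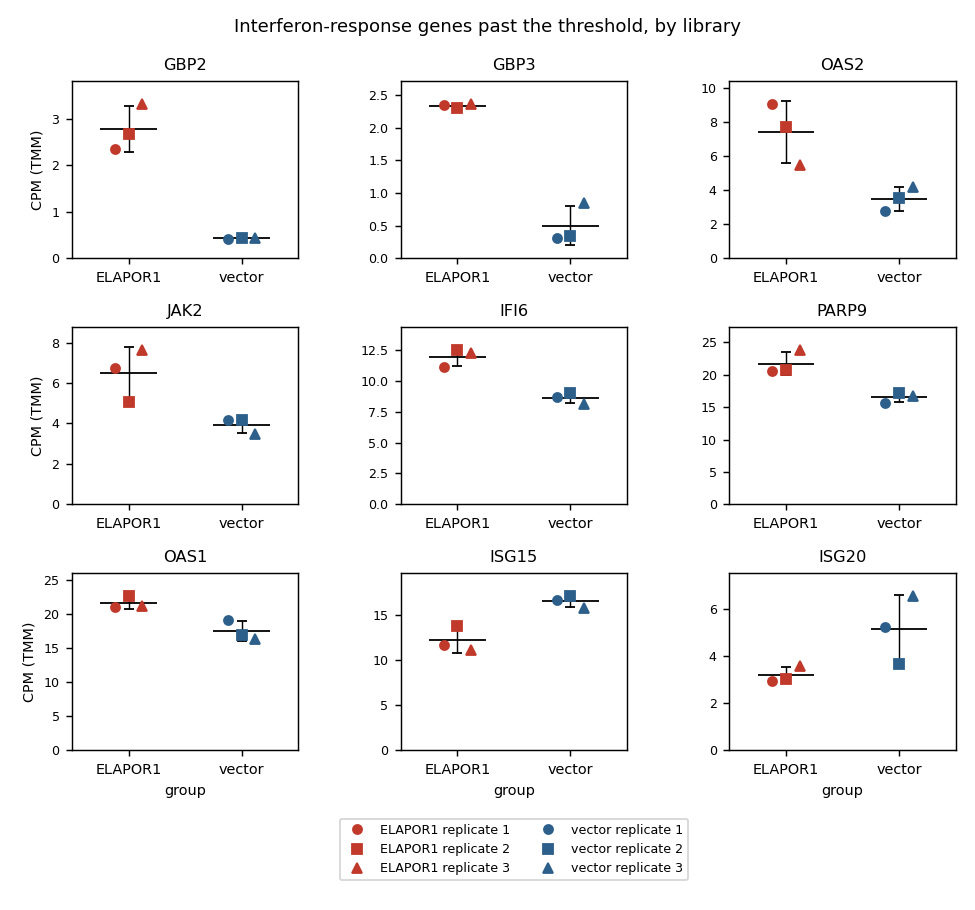
The plots give CPM per library, scaled with TMM factors, for the 9 genes past the threshold, with the mean as a horizontal line and 1 SD as a bar (n = 3 each) and each axis starting at 0. In all 9 genes the ELAPOR1 and vector libraries do not overlap, but the genes were selected by the test on these same libraries. Of all tested genes, 33.8% do not overlap. The gap is narrow in ISG20, where 3.59 CPM in ELAPOR1 replicate 3 lies beside 3.68 CPM in vector replicate 2.

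The IFIT proteins, which bind foreign RNA ends, lie in 1 cluster on chromosome 10 and had log2 fold changes of 0.37 (IFIT1), 0.19 (IFIT2), 0.28 (IFIT3) and 0.19 (IFIT5), none of them called. IFIT3 had 9.10, 9.50 and 9.26 CPM in ELAPOR1 libraries, against 7.51, 8.04 and 7.46 CPM in vector libraries, and IFIT5 had 32.9, 28.7 and 30.2 CPM in ELAPOR1 libraries, against 25.4, 27.4 and 27.5 CPM in vector libraries. In both the groups did not overlap, with adjusted p-values of 0.159 and 0.0789 by edgeR. Over the 40 tested genes, 13 (32.5%) had groups that did not overlap, 10 of them higher and 3 lower in ELAPOR1 cells, against 33.8% of all tested genes (16.4% higher and 17.4% lower). The 10 higher genes include GBP2 and GBP3, which passed the filter through the ELAPOR1 libraries.

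No difference beyond the spread was found for the remaining effectors with enough counts. MX1, a dynamin-like GTPase that blocks RNA viruses, had 7.01, 6.74 and 7.29 CPM in ELAPOR1 libraries, against 6.33, 6.92 and 7.76 CPM in vector libraries, a log2 fold change of 0.00. MX2, its relative active against lentiviruses, had -0.07 (adjusted p = 0.865 by edgeR). IFIH1, the sensor MDA5 for long double-stranded RNA, had 22.3, 18.6 and 21.3 CPM in ELAPOR1 libraries, against 17.2, 20.2 and 17.4 CPM in vector libraries (log2 fold change 0.18, adjusted p = 0.208 by edgeR). TRIM21, a cytosolic antibody receptor and the uncalled effector with the highest level per length, averaged 7.37 ± 1.05 FPKM in ELAPOR1 cells and 7.56 ± 0.182 FPKM in vector cells (log2 fold change -0.01, adjusted p = 0.956). IFI27, IFI35 and BST2 (tetherin, which holds virions at the cell surface) had -0.75, 0.15 and 0.12, with adjusted p-values from 0.321 to 0.911 by edgeR. IFI27 and BST2 rested on 5 to 23 counts per library.

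The 9 genes below the filter were GBP4, GBP5, IFI16, IFI44, IFI44L, HERC5, RSAD2, XAF1 and DDX60, and none exceeded 23 counts in a library. Several of them, RSAD2 (viperin), IFI44 and IFI44L among them, are widely used readouts of type I interferon exposure. DDX60, an antiviral helicase, had the highest count among them, with 10, 8 and 23 counts in ELAPOR1 libraries, against 4, 8 and 0 counts in vector libraries. The authors' deposited table gives it a fold change of 1.92 on the log2 scale (adjusted p = 0.0637). Without ELAPOR1 replicate 2, DDX60 passed the filter and was called at a log2 fold change of 2.17 (adjusted p = 0.0228 by edgeR). Without vector replicate 2 it was called at 2.74 (adjusted p = 0.0179 by edgeR). No other alternative called DDX60, and its counts are low in every library.

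A set of inducible genes varied between libraries of the same group. CXCL10, a chemokine that attracts T cells, had 25, 3 and 36 counts in ELAPOR1 libraries, against 7, 35 and 4 counts in vector libraries. CXCL11, a chemokine of the same receptor that is not among the 49 genes, had 9, 0 and 14 counts in ELAPOR1 libraries, against 2, 10 and 0 counts in vector libraries. With GBP1 these genes were high in ELAPOR1 replicates 1 and 3 and in vector replicate 2, and low in the other 3 libraries. RSAD2 had 6, 3 and 9 counts in ELAPOR1 libraries, against 1, 13 and 2 counts in vector libraries, in the same order of high and low. IFIT2 was less uneven, with 101, 84 and 89 counts in ELAPOR1 libraries, against 79, 130 and 51 counts in vector libraries. CXCL10 had a log2 fold change of 0.63 (SE 0.510, adjusted p = 0.437 by edgeR) with all libraries and 1.99 (adjusted p = 0.0287) without vector replicate 2, and GBP1 had 2.14 (adjusted p = 0.0749) without it. Over the 6 fits that each left out 1 library, CXCL10 ranged from 0.06 (without ELAPOR1 replicate 3) to 1.99 and GBP1 from 0.35 (without vector replicate 3) to 2.14. GBP2 and GBP3 did not follow this order: in both, vector replicate 2 was close to vector replicate 1, and ELAPOR1 replicate 2 was close to the other ELAPOR1 libraries. The grouping of these genes was made after their values were seen.

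**Figure D5:**
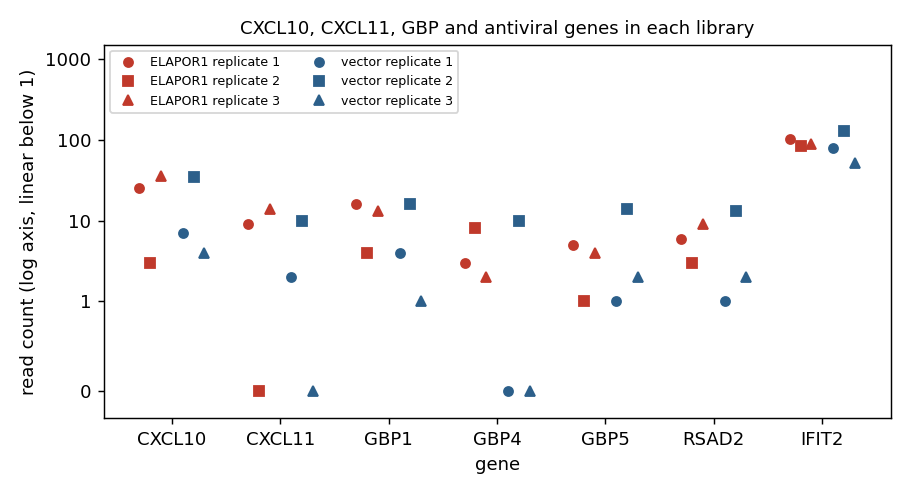
The plot gives read counts per library, on a log axis that is linear below 1, for CXCL10, CXCL11, GBP1, GBP4, GBP5, RSAD2 and IFIT2, with ELAPOR1 libraries in red to the left of vector libraries in blue. Vector replicate 2 (blue square) is the highest vector library for each of these genes, and ELAPOR1 replicate 2 (red square) is the lowest ELAPOR1 library for each except GBP4.

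Other genes of the pathway, from lists made for comparison, were called in both directions, and the shares called are to be read against 21.4% of all tested genes (10.0% higher and 11.4% lower). Among 12 tested receptor, STAT and IRF genes outside the 49, 1 rose and 1 fell (16.7% called). The gene that rose was IL6ST, the shared gp130 chain of interleukin-6 family receptors. It had 50.9 ± 3.51 CPM in ELAPOR1 cells and 42.5 ± 2.21 CPM in vector cells (log2 fold change 0.26, adjusted p = 0.00163 by edgeR). Among 11 tested nucleic acid sensors and adaptors, of which 18.2% were called, TLR3, the endosomal receptor for double-stranded RNA, rose by a log2 fold change of 0.82 (adjusted p = 0.0241) and EIF2AK2, the kinase PKR, fell by 0.15 (adjusted p = 0.00675). Among 32 other tested interferon-stimulated genes, 5 rose and 1 fell (18.8% called), which is near the share of all genes. The 3 largest were UBE2L6, the E2 enzyme for ISG15, with 2.41 ± 0.287 CPM in ELAPOR1 cells and 1.05 ± 0.249 CPM in vector cells (log2 fold change 1.19, adjusted p = 0.00758), NMI (0.64, adjusted p = 0.0167) and DDX60L, the paralog of DDX60 (0.63, adjusted p = 0.022). The median log2 fold change of these 32 genes was 0.02. DESeq2 did not call TLR3 (adjusted p = 0.0768), NMI (0.0912) or DDX60L (0.0944).

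Genes best known as targets of interferon gamma and the feedback inhibitors were also mixed. Of 10 tested interferon gamma targets, 1 rose and 2 fell (30.0% called, against 21.4% of all tested genes). ICAM1, an adhesion molecule, rose, with 4.07 ± 0.726 CPM in ELAPOR1 cells and 2.28 ± 0.197 CPM in vector cells (log2 fold change 0.83, adjusted p = 0.00799 by edgeR). APOL2 fell by 0.48 on the log2 scale (adjusted p = 0.000949), and WARS1, a tryptophan tRNA synthetase, fell by 0.21 (202 ± 4.90 CPM in ELAPOR1 cells and 234 ± 7.43 CPM in vector cells, adjusted p = 4.07e-06). Of 17 tested negative regulators, 17.6% were called. SOCS2, a feedback inhibitor of JAK signalling, rose by 0.65 (adjusted p = 0.0385), and PIAS2 and PIAS3, which restrain STATs, each fell by 0.37 (adjusted p = 0.0107 and 0.0184). The SOCS2 libraries overlapped between the groups, and DESeq2 called none of the 3 (adjusted p = 0.164, 0.0653 and 0.105).

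Matches to the motifs were counted in the promoter windows of the 3 classes, as a description. A window of 250 bases before to 50 bases after the start was in the RefSeq promoter table used here for 38 of the 49 genes, and both strands were searched, counting overlapping matches; the 2 motifs share the letters GAA, so their matches can share bases. GAAANNGAA occurred in 24 of these 38 genes, against 9.86% of 27305 genes with a window. It was held by 3 of 3 GBPs, 21 of 25 type I effectors and 0 of 10 JAK-STAT-IRF genes. The motif TTCNNNGAA occurred in 10 of 38, against 9.38% of all genes with a window. Split by outcome among the genes with a window, which do not include GBP2 and OAS2, GAAANNGAA was held by 3 of 5 genes that rose, 2 of 2 that fell, 12 of 23 that were not called and 7 of 8 that were too low to test. JAK2 and OAS1 had a window without it.

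The authors' deposited table of their own comparison, which gives log2 fold changes and adjusted p-values, called 7 of the 49 genes higher and 2 lower at an adjusted p of 0.05, the same 9 genes in the same directions as the edgeR test, while 8 of the 49 had no adjusted p in it. Over all genes with an adjusted p, the authors' deposited table called 19.1%.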

How the data were processed

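Poly(A) RNA from 1 ug of total RNA was sequenced per the labels' protocols. The authors deposited read counts per gene without normalization, and FPKM values that matched the counts divided by exonic length and library total (all 142222 values above 0 counts, to within 0.01). Their deposited comparison, whose headers are those of DESeq2, holds log2 fold changes, p-values, and a mean normalized signal, standard error and test score per gene. Tools named in the submitters' processing notes are HISAT2 2.0.1, cutadapt 1.9.1, DESeq2 and HTSeq 0.6.1, with the GRCh38 build. Column names beginning with NC were read as the negative control and those beginning with K as ELAPOR1, which was formerly called KIAA1324.

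The main test was the two-sided quasi-likelihood test of edgeR 4.0.16 (R 4.3.3) on counts, after filterByExpr, with TMM factors and Benjamini-Hochberg adjustment over 16003 genes. Genes under an adjusted p of 0.05 were called. Each standard error is the size of the log2 fold change divided by the root of its F value. Results were recomputed with DESeq2 1.42.0, with 2 other scalings and 2 other filters, with a replicate block, with limma 3.58.1 on FPKM (pseudocounts of 1 and 0.1, minimum of 0.5 FPKM in 3 libraries), at an adjusted p of 0.01, and after removing the ELAPOR1 gene or any 1 library. The calculation was tested on simulated data. Pairs of libraries within a group differed by 2.43 to 3.62 in mean chi-square per gene, more than sampling noise gives, so none was treated as 1 library deposited again.

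The 49 genes and the other lists were chosen with earlier results of these data known. The genes named are all those called, the uncalled ones with the highest FPKM in each class and with the largest change, and up to 3 called genes from each further list. Others were named after their values were seen. Some genes that this rule selects are not reported here. Promoters came from RefSeq (GRCh38.p14), matched by symbol.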

Additional observations from a re-analysis of the deposited data

How the results depend on the processing

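GBP2, OAS2, IFI6 and ISG15 kept their call and direction in every alternative that gave a value, with log2 fold changes of 2.54 to 2.8, 0.92 to 1.26, 0.41 to 0.52 and -0.54 to -0.37; GBP2 and OAS2 fell under the FPKM minimum and had no value with limma. None of the 9 called genes changed direction. TRIM21 and IFNGR1, which were not called and lay at -0.01 and 0.01, took the other sign in some alternatives, ranging from -0.08 to 0.09 and from -0.01 to 0.03. By edgeR with 1 library left out, the genes called higher numbered 6 to 9, those called lower 1 to 3, the type I effectors called 4 to 7, the GBPs called 2 in each case and the JAK-STAT-IRF genes called 0 to 2. With limma on log2(FPKM + 1), 2 genes were higher and 1 lower, with 2 effectors, 1 GBP and 0 JAK-STAT-IRF genes called; with log2(FPKM + 0.1), 1 was higher and 1 lower, with 2 effectors, 0 GBPs and 0 JAK-STAT-IRF genes called; 32 of the 49 genes passed the FPKM minimum. There GBP3 had 1.61 (adjusted p = 0.0753 with limma on log2(FPKM + 0.1)). DESeq2 called 6 higher and 1 lower, losing OAS1 (adjusted p = 0.0646) and ISG20 (0.0742), while DESeq2 with a local dispersion trend called 7 higher and 2 lower and kept both (0.0144 and 0.0201). The further lists were recomputed with DESeq2 without the local trend. That fit called 1 of the nucleic acid sensors and adaptors, 3 of the other interferon-stimulated genes and 0 of the negative regulators, against 2, 6 and 3 by edgeR. Of the pathway genes named from the further lists, that fit lost TLR3, NMI, DDX60L, SOCS2, PIAS2 and PIAS3. Over all genes DESeq2 called 14.8%, against 21.4% by edgeR. Limma called 2133 of 14926 genes on log2(FPKM + 1) and 2098 of 14926 on log2(FPKM + 0.1), against 3427 of 16003 in the main fit. The edgeR fits with 1 library left out called 2723 to 3187 genes, of 16312 to 16623 tested. Fewer calls under these settings are thus not particular to the interferon genes. At an adjusted p of 0.01 by edgeR, 6 were higher and 1 lower, and 2245 of all 16003 tested genes were called. RLE factors, library sizes alone, no filter, at least 10 counts in 3 libraries and leaving out ELAPOR1 gave 7 higher and 2 lower. Same-numbered libraries did not deviate together over all tested genes (correlations of -0.022, -0.035 and -0.021). These correlations include counting noise and cannot exclude a pairing that touches some genes, so whether the numbers pair the libraries is not known. With the replicate block 7 genes were higher and 2 lower, as without it. The causes of these differences were not tested. Depth limits the 9 genes of at most 23 counts, among them GBP4 and GBP5.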
